A study of Arabidopsis thaliana with 6 samples.

Results

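*MYB7* (AT2G16720) and 8 related R2R3-type MYB genes were followed in root tips of *Arabidopsis thaliana*. They comprise 6 genes grouped as repressors, *MYB3*, *MYB4*, *MYB6*, *MYB7*, *MYB8* and *MYB32*, and 3 flavonol activators, *MYB11*, *MYB12* and *MYB111*. The members were taken by their AGI locus from the 33201 rows of the expression table, and each of the 9 loci had a row of its own. The wild type was Columbia (Col, labelled WT), and the mutant was the *an3* loss-of-function line, which lacks most of the transcript of the co-activator AN3/GIF1. For each genotype 3 samples of root tips of about 5 mm were collected from 5-day-old seedlings, which had been grown on plates in long days, and the RNA was sequenced as 100 bp single-end reads. The table gives 1 FPKM value (read fragments normalised to transcript length and library size) per genotype, which stands for its 3 samples together.

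Values of single samples were not used here, so the levels below have no error and no test between genotypes was made from them. The spread between replicates cannot be read from these values, and the authors' own test of the genotypes was left unused. A transcript was treated as measured where the higher of the 2 genotypes reached 1 FPKM, which held for 17578 rows. Ratios of *an3* over Col are log2 ratios after 0.1 FPKM was added to each value, which understates the difference of transcripts with low levels. Over the measured rows the median log2 ratio was -0.0033, and 25% to 75% of them lay between -0.16 and 0.16. The mutated gene itself was at 21.5 FPKM in Col and at 2.55 FPKM in *an3*, a reduction of 88.1%. Of the root tissue markers, *SHR* and *SCR*, which act in stele and endodermis, and the root cap gene *SMB* were measured in both genotypes. The quiescent center gene *WOX5* stayed below 1 FPKM (Col 0.623, *an3* 0.456). The meristem genes *PLT1* (Col 0.944, *an3* 1.47) and *PLT2* (Col 1.52, *an3* 1.41) were close to that minimum. Of the shoot markers, *STM*, a gene of the shoot meristem, was listed at 0 in both, but *CAB1* and *RBCS1A* were measured. *CAB1* was at 27.1 FPKM in Col and at 8.63 FPKM in *an3*, and *RBCS1A* was at 3.55 and 1.67 FPKM. In these bulk samples, fewer cells of a type and less RNA per cell cannot be told apart.

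The phenylpropanoid pathway turns phenylalanine into lignin monomers, sinapate esters and flavonoids, and MYB transcription factors set the transcription of its enzymes. MYB4, MYB7 and MYB32 carry an EAR-type motif, a short leucine-rich stretch through which plant repressors recruit co-repressors such as TOPLESS, and they lower the transcription of genes of the pathway. MYB11, MYB12 and MYB111 act in the opposite direction and switch on the early flavonoid enzymes and flavonol synthase, with MYB12 known as the main one of them in roots. The study proposes WRKY30 or MYB7 as the repressor of *CYCD6;1* that AN3 activates in its model of the cortex endodermis initial. Its grounds were differential expression in *an3*, interaction with TOPLESS, correlation with the model and a chromatin experiment that listed both as AN3 targets. This proposal is the reason to look at *MYB7* beside its relatives here.

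To show the sequence in front of the genes that the values below turn on, the 250 bases before the annotated start of *MYB7* and *MYB4* were read from the RefSeq assembly TAIR10.1 with its own annotation. These were the members with the highest ratios. The genes were matched by locus only, since the sources used here do not name the build behind the expression table. The window of *MYB7* is chr2:7256832-7257081 on the minus strand, and that of *MYB4* is chr4:18053110-18053359 on the plus strand. Sequences run 5′ to 3′, and capitals mark an AC element, the short motif bound by MYB proteins of this pathway (letters below).
MYB7: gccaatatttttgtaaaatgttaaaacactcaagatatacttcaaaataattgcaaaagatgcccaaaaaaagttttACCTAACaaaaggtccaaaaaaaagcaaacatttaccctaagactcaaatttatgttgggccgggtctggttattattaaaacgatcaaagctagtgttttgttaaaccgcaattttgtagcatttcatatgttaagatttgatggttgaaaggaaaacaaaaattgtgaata
MYB4: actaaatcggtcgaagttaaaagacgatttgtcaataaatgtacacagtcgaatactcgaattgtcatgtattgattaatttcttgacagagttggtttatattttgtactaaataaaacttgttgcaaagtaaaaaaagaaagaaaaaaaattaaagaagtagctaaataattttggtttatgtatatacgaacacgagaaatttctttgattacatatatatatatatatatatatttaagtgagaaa

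AC elements were searched as ACCTACC (type I), ACCAACC (type II) or ACCTAAC (type III) on both strands of this window. They were searched in 8 of the members and present in 3 of these, against 6.12% of the 27443 promoters of nuclear protein-coding genes. *MYB7* held ACCTAAC from 173 to 167 bases before the start, and *MYB6* and *MYB8* held ACCTACC. *MYB4* and *MYB32* had no match. The G-box CACGTG was found in *MYB12* alone of the 8, against 6.49% of all promoters. AN3 has no DNA-binding domain of its own and acts with GRF transcription factors. The letters TGTCAG, known from GRF binding sites, were in none of the 8 windows and in 5.3% of all promoters. These are matches of letters and not measured binding, and no match says only that these letters are not in this window.

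*MYB7*, which encodes a repressor of flavonoid genes, was the most abundant repressor transcript in *an3* and practically level with *MYB3* (40.9 FPKM) in Col. It was at 41.0 FPKM in Col and at 58.8 FPKM in *an3*, a difference of 17.8 FPKM and a log2 ratio of 0.52 (1.43-fold). Of all measured rows, 5.5% had a ratio at least as high, and of the 10010 rows with at least 10 FPKM in the higher genotype 2.96% did. *MYB7* was thus higher in *an3*, in the upper tail of the table but short of 1.5-fold. In the paper's model AN3 activates the repressor, whereas the *MYB7* transcript was higher, not lower, in the *an3* line. The model places the repressor in the initial cell, and these values are of whole root tips. Regulation of *MYB7* by AN3 was not tested here.

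*MYB4* (AT4G38620), which encodes the repressor of the cinnamate 4-hydroxylase gene *C4H* and of sinapate ester synthesis, came next by ratio. It was at 25.2 FPKM in Col and at 34.6 FPKM in *an3*, a log2 ratio of 0.46, and 6.91% of the measured rows had a ratio at least as high. The ratio of the *MYB7* level to the *MYB4* level was 1.63 in Col and 1.70 in *an3*. These transcripts thus kept nearly the same proportion to each other while both were higher in *an3*.

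*MYB3* (AT1G22640) and *MYB6* (AT4G09460) showed no such difference. MYB3 is a repressor of phenylpropanoid genes that works with the proteins LNK1 and LNK2, and the role of MYB6 in the pathway is less well described. *MYB3* was at 40.9 FPKM in Col and at 39.1 FPKM in *an3*, a log2 ratio of -0.06. *MYB6* was at 17.9 FPKM in Col and at 17.2 FPKM in *an3*, a log2 ratio of -0.05. In Col the *MYB3* level was almost that of *MYB7*, with a *MYB7* to *MYB3* ratio of 1.00, whereas that ratio was 1.5 in *an3*.

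*MYB32* (AT4G34990), known for its role in pollen formation and as a repressor of phenylpropanoid genes, was the only member past 1.5-fold, and it was lower in *an3*. It was at 1.86 FPKM in Col and at 1.13 FPKM in *an3*, a log2 ratio of -0.68 (1.60-fold lower), and 2.62% of the measured rows had a ratio as low or lower. Its level was close to the minimum of 1 FPKM, and a pseudocount of 1 FPKM gave a log2 ratio of -0.43, no longer past 1.5-fold. *MYB8* (AT1G35515), listed by RefSeq as *HOS10*, was at 0.274 FPKM in Col and at 0.223 FPKM in *an3*, below the minimum in both.

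**Figure D1:**
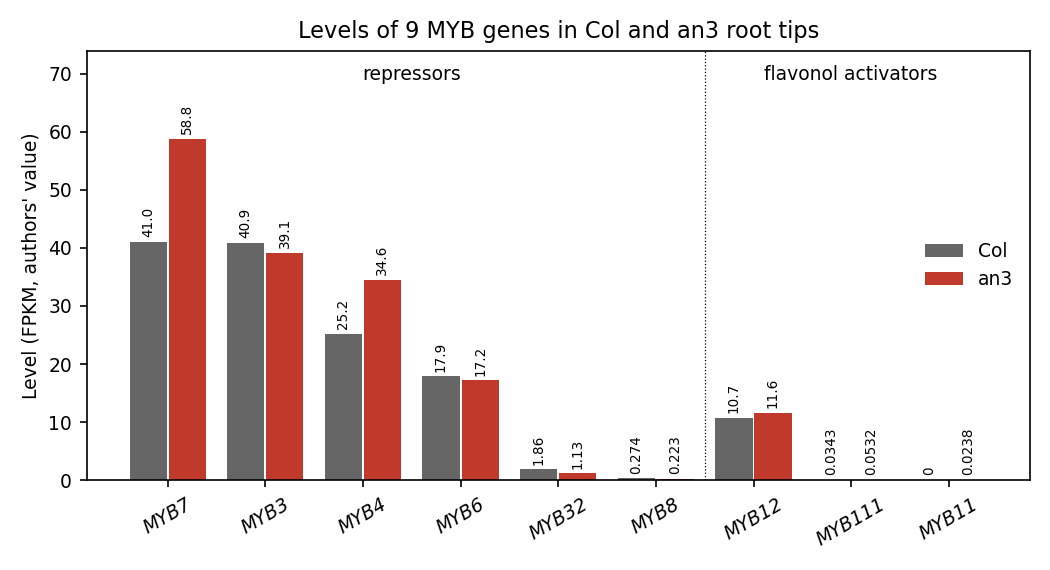
Level in FPKM of the 6 repressor and 3 activator genes (x axis) in Col and *an3*, with 1 bar per genotype for its 3 samples together and no error bar, since the table gives a single value. *MYB7* stands at 41.0 and 58.8 FPKM and *MYB4* at 25.2 and 34.6 FPKM, while *MYB3*, *MYB6* and *MYB12* differ by less than 2 FPKM between the genotypes.

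Of the flavonol activators only *MYB12* (AT2G47460) was measured, and it differed little between the genotypes. It was at 10.7 FPKM in Col and at 11.6 FPKM in *an3*, a log2 ratio of 0.12, and 30.2% of the measured rows had a ratio at least as high. *MYB111* (AT5G49330), which is known to act mainly in the cotyledons, was at 0.0343 FPKM in Col and at 0.0532 FPKM in *an3*. *MYB11* (AT3G62610) was listed at 0 in Col and at 0.0238 FPKM in *an3*. *MYB12* made up 99.7% of the summed activator level in Col and 99.3% in *an3*, so that the activator level of these root tips was that of *MYB12*.

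Of the 6 measured members, none was at least 1.5-fold higher and 1 was at least 1.5-fold lower, against 4.45% and 3.58% of all measured rows, or 8.03% in both directions together. At a smaller difference, at least 25% higher or 20% lower, *MYB7* and *MYB4* were higher and *MYB32* was lower, against 12% of all measured rows that were higher and 10.8% that were lower, or 22.8% in both directions together. The log2 ratios of the 5 measured repressors ran from -0.68 to 0.52 with a median of -0.05, near the median of all measured rows. The repressors thus did not differ in a common direction. With so few genes these counts describe the members and show nothing particular to them.

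**Figure D2:**
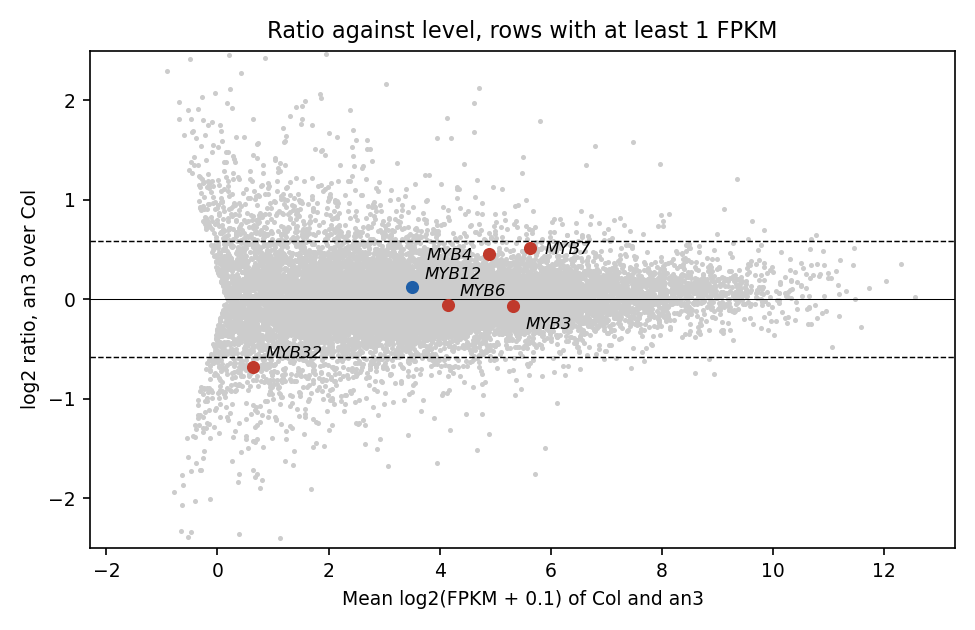
Log2 ratio of *an3* over Col against the mean log2(FPKM + 0.1) of both genotypes, with 1 grey point per row of at least 1 FPKM, red points for the 5 measured repressors, a blue point for *MYB12* and dashed lines at 1.5-fold; 73 rows lie beyond the y axis. *MYB7* and *MYB4* lie below the upper dashed line at high levels, and *MYB32* lies past the lower one at a low level.

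Since FPKM is scaled to transcript length, the levels of the members were also added up. The 6 repressors summed to 127.1 FPKM in Col and to 151.1 FPKM in *an3*. *MYB7* and *MYB4* together reached 66.2 FPKM in Col against 93.4 FPKM in *an3*, and the other 4 repressors had 60.9 and 57.7 FPKM. The higher sum in *an3* therefore came from *MYB7* and *MYB4*. The share of *MYB7* in the repressor sum was 32.3% in Col and 39.0% in *an3*, and that of *MYB3* was 32.2% and 25.9%. The sum of the repressors was 11.8 times that of the activators in Col and 12.9 times in *an3*. These shares refer to transcript levels of whole root tips, in which the genes need not be expressed in the same cells.

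Among all 125 genes of the table that carry MYB and a number as a symbol, 54 were measured. *MYB7* ranked number 6 by level in Col and number 3 in *an3*, *MYB3* ranked number 7 and number 9, and *MYB4* ranked number 12 and number 10. By ratio *MYB7* ranked number 10 of the 54 measured genes. Among the 25 of these genes that reached 10 FPKM in the higher genotype, *MYB7* had the highest ratio. It was followed by *MYB45* (0.50), *MYB38* (0.49) and *MYB4* (0.46). *MYB7* was thus close in ratio to genes outside the group. Of the 48 measured MYB genes that are not members, 15 were at least 25% higher, against 12% of all measured rows. Another 6 were at least 20% lower, against 10.8% of all measured rows. The median log2 ratio of the 48 genes was 0.05. Nearest to *MYB7* in both levels together, by the Euclidean distance of log2(FPKM + 0.1) over the 2 genotypes, were *MYB73* at a distance of 0.23, *MYB61* at 0.26 and *MYB44* at 0.30. Their log2 ratios were 0.20, 0.25 and 0.15, below that of *MYB7* (0.52). Their closeness to *MYB7* in level follows from the way they were picked.

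**Figure D3:**
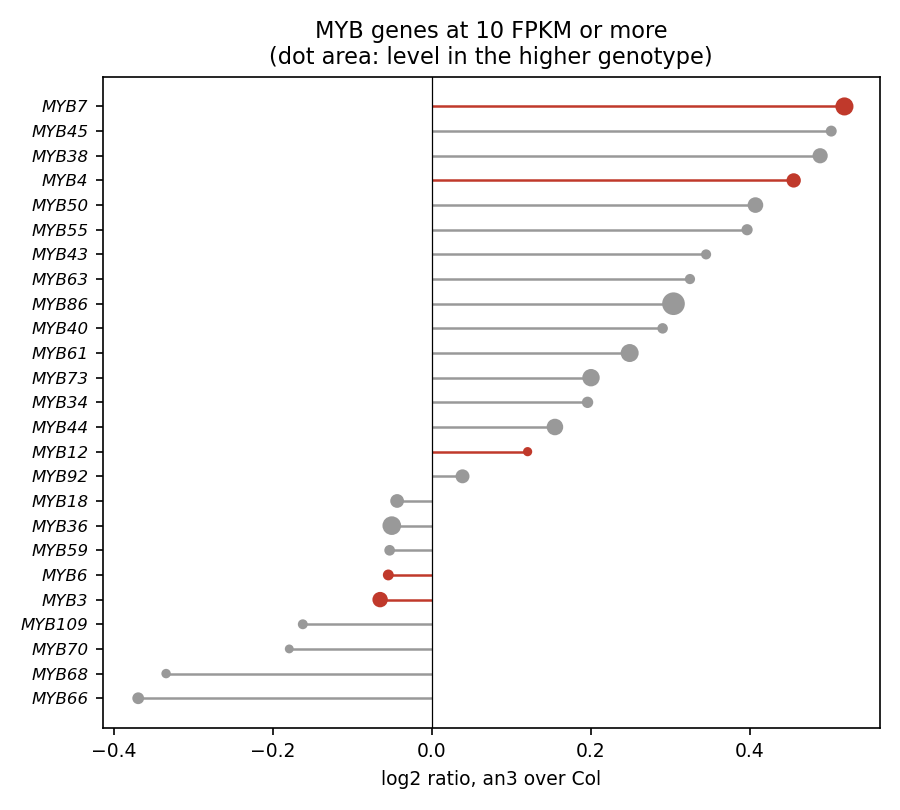
Log2 ratio of *an3* over Col for the 25 MYB genes that reach 10 FPKM in either genotype, with members in red, other genes in grey and the dot area proportional to the level in the higher genotype; each point is a single value without error. *MYB7* (0.52) stands at the top and *MYB4* (0.46) in place 4, while *MYB12*, *MYB6* and *MYB3* lie between -0.06 and 0.12.

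Transcripts of proteins known to work with MYB regulators were looked at next. Of 9 such genes 8 were measured. At least 20% lower in *an3* were 5 of them, against 10.8% of all measured rows. None was at least 25% higher, against 12%. The median log2 ratio was -0.36, against -0.0033 over all measured rows. *LNK2*, which encodes a partner of MYB3 and is also a gene of the circadian clock, was at 8.77 FPKM in Col and at 3.62 FPKM in *an3* (log2 ratio -1.25), and its relative *LNK1* had a log2 ratio of -0.54. *GL3* and *EGL3*, which encode bHLH partners of MYB proteins, had log2 ratios of -0.41 and -0.36. Their relative *TT8* was at 0.0172 FPKM in Col and at 0.0194 FPKM in *an3*, below the minimum. *SAD2*, which encodes the importin that brings MYB4 into the nucleus, had a log2 ratio of -0.20, and the co-repressor gene *TPL* one of -0.19. The highest log2 ratio of the list was that of *TTG1* (0.08), and the other measured partners were below 0. The sources used here do not state the time of day at which the root tips were collected.

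Of 20 genes for general phenylpropanoid and monolignol enzymes 19 were measured, none was at least 20% lower (10.8% of all measured rows) and 2 were at least 25% higher (12%), with a median log2 ratio of 0.04. *C4H*, a known target of MYB4, was not among those past either limit. *C4H* was at 487.2 FPKM in Col and at 456.5 FPKM in *an3*, a log2 ratio of -0.09. The 2 higher genes were *CCR2*, a cinnamoyl-CoA reductase gene, from 6.18 FPKM in Col to 9.94 FPKM in *an3*, and *ADT6*, which makes phenylalanine and is known as a target of MYB4, with a log2 ratio of 0.39. The lowest ratio was that of *4CL3* (-0.28), the 4-coumarate:CoA ligase gene of the flavonoid branch, whereas *CCoAOMT1* of the lignin branch had 0.21.

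Of 15 genes for flavonoid enzymes 10 were measured. At least 20% lower in *an3* were 4 of them, against 10.8% of all measured rows, and none was at least 25% higher, against 12%. The median log2 ratio was -0.26, and the other 6 measured genes passed neither limit. *F3H* was at 250.2 FPKM in Col and at 177.5 FPKM in *an3* (log2 ratio -0.49), *F3'H* had 29.0 and 18.7 FPKM (-0.63), and *CHI*, the chalcone isomerase gene, had a log2 ratio of -0.34. *UGT78D1*, which encodes a glycosyltransferase of flavonols, was at 1.60 FPKM in Col and at 0.647 FPKM in *an3*, at the low end of the measured range. *CHS* and *FLS1* had log2 ratios of -0.22 and -0.03. The gene of dihydroflavonol reductase, *DFR*, a known target of MYB7, was at 0.0328 FPKM in Col and at 0.0267 FPKM in *an3*, below the minimum in both, and gives no comparison in this tissue.

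Of 18 other regulators of the pathway 7 were measured, 3 of them were at least 25% higher (12% of all measured rows) and none at least 20% lower (10.8%), with a median log2 ratio of 0.26. These 3 were *MYB46*, a switch of secondary wall formation, and the lignin regulators *MYB58* (log2 ratio 0.54) and *MYB63* (0.32). *MYB46* was at 1.16 FPKM in Col and at 2.12 FPKM in *an3*, and *MYB58* at 1.45 and 2.15 FPKM. Both were close to the minimum of 1 FPKM. *CPC*, a single-repeat MYB of root hair patterning, had the lowest log2 ratio (-0.29). The anthocyanin activators *MYB75*, *MYB90*, *MYB113* and *MYB114* were listed at 0 in both genotypes.

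**Figure D4:**
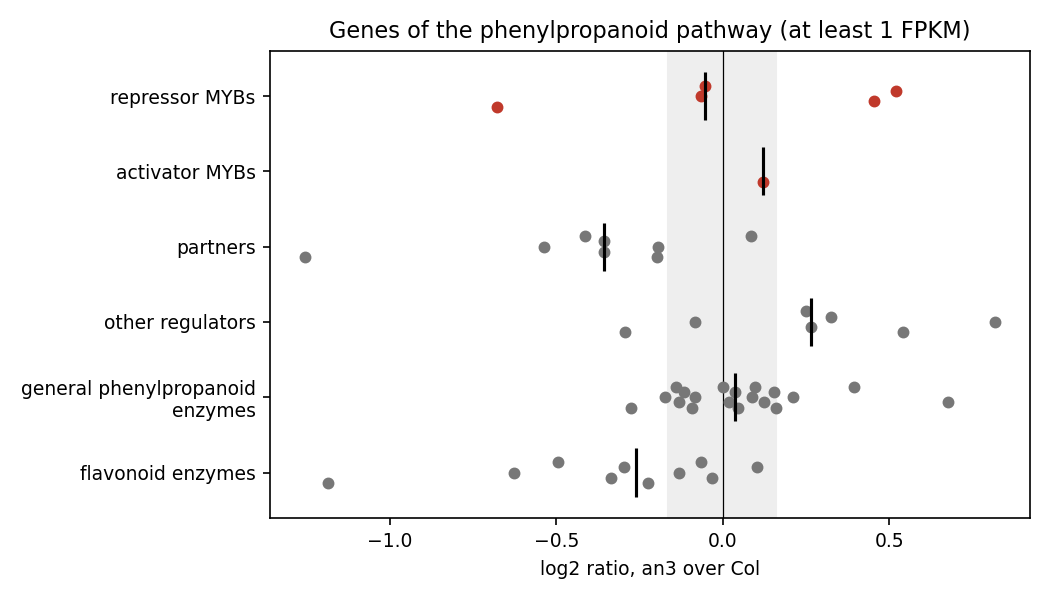
Log2 ratio of *an3* over Col for the measured genes of each group, with 1 point per gene, a black bar at the median of the group and a grey band that holds the middle 50% of all measured rows. The medians are -0.26 for flavonoid enzymes, 0.04 for general phenylpropanoid enzymes, -0.36 for partners and -0.05 for the repressors, whose points spread from -0.68 to 0.52.

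Markers of tissues that root tips contain, or could be contaminated with, were set beside the MYB genes. Of 6 root meristem and root cap markers 5 were measured, all but *WOX5*, with a median log2 ratio of -0.10. Only *PLT1*, at a level close to the minimum, was at least 25% higher, against 12% of all measured rows. None passed the lower limit, against 10.8%. The 7 Casparian strip markers of the endodermis were all measured and summed to 1917 FPKM in Col and to 2402 FPKM in *an3*. Their median log2 ratio was 0.32, with a range from -0.05 (*MYB36*) to 0.49 (*CASP4*). At least 25% higher were 3 of them, against 12% of all measured rows. None passed the lower limit, against 10.8%. The 5 markers of xylem with secondary walls were all measured, summed to 60.4 and 70.6 FPKM and had a median of 0.17, with none past either limit. The 5 shoot markers summed to 30.8 FPKM in Col and to 10.4 FPKM in *an3*, of which *CAB1* made up most with 27.1 and 8.63 FPKM, while *RBCS2B* and *STM* were listed at 0 in both. The ratio of *MYB4* (0.46) lay near the upper end of the range of the Casparian strip markers, and that of *MYB7* (0.52) just above it. The part of the tissue make-up of the root tips in the levels of the MYB genes was not tested.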

How the data were processed

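Root tips of Col and *an3* seedlings were profiled by RNA-seq, with 3 samples for each genotype. The authors processed the reads through TuxNet, which uses ea-utils fastq-mcf for trimming, HISAT2 for alignment and Cufflinks for quantification and comparison. The sources used here state no version, genome build, annotation or strand setting. FPKM values were deposited as 1 Cufflinks estimate per genotype for 3 samples, and the depth per sample is therefore unknown. Further columns hold the authors' own comparison (fold changes and q-values) and were not used. Reads of similar MYB genes may have been shared between them by the estimate.

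Log2 ratios used a pseudocount of 0.1 FPKM, a minimum of 1 FPKM in the higher genotype and a fold of 1.5, with a difference of at least 25% higher or 20% lower beside it. No ratio was computed against a value listed at 0. The computation was checked on simulated data without noise, with 2-fold differences planted in rows of at least 10 FPKM. That check says nothing about noise, low levels or smaller differences. The members and lists were chosen with earlier results of these data known. Named genes are the 9 members, *AN3*, *C4H*, *DFR*, *TT8*, up to 4 measured genes per list (fewer for marker lists) with the largest absolute log2 ratio, and the 3 MYB genes nearest to *MYB7*. Other genes were named after their values were seen. Gene symbols and promoters came from RefSeq (TAIR10.1), which matched 97.8% of the loci in the table. All 9 members matched, and the promoter of *MYB3* is not reported here. Alternatives were other pseudocounts, minimums and folds, a rescaling to a median ratio of 1 and leaving out rows with several loci. Python 3.11.15, pandas 2.3.3, numpy 2.4.6 and matplotlib 3.10.9 were used.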

Additional observations from a re-analysis of the deposited data

How the results depend on the processing

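The log2 ratio of *MYB7* lay between 0.51 and 0.52 under other pseudocounts, the rescaling and the removal of rows with several loci, that of *MYB4* between 0.44 and 0.46, and those of *MYB3*, *MYB6* and *MYB12* kept their sign. With a pseudocount of 1 or 0.01 FPKM in place of 0.1, the log2 ratio of *MYB32* was -0.43 or -0.72 (from -0.68), that of *MYB8* -0.06 or -0.29 (from -0.21) and that of *MYB111* 0.03 or 0.51 (from 0.19), and *MYB11* has no ratio. The median of the repressors changed from -0.05 to 0.20 with a minimum of 10 FPKM, since *MYB32* was then left out. The number of members past the fold was 1 as reported, 3 at a limit of 25% higher or 20% lower and 0 at 2-fold, with a pseudocount of 1 FPKM or with a minimum of 10 FPKM. The number of rows past the fold was 1411 as reported, 854 with a pseudocount of 1 FPKM, 3127 without a minimum, 359 with a minimum of 10 FPKM, 4005 at 25% higher or 20% lower and 452 at 2-fold, as the looser or stricter setting admits more or fewer rows. No paired analysis was possible because the table holds 1 value per genotype and none per replicate, and for the same reason leaving out each replicate was not run. The values carry no error, and the depth is unknown.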

Other observations

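Outside the members, the highest ratios among measured MYB genes belonged to transcripts of low level, which were chosen after their values were seen. *MYB93*, a regulator of lateral root development, was at 0.302 FPKM in Col and at 1.42 FPKM in *an3*, and *MYB19* had 2.26 and 5.08 FPKM. *MYB46* (log2 ratio 0.82), *MYB84* (0.68) and *MYB28* (0.67) came next. *MYB9*, known from suberin formation, followed with 3.52 and 5.62 FPKM, a log2 ratio of 0.66. All of these were below the levels of *MYB7* and *MYB4* in both genotypes, and their ratios carry no error.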
